A study of Mus musculus with 7 samples.

Results

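Lipid-associated macrophages are macrophages that take up and break down lipid and cell debris, and alternatively activated macrophages are those that respond to interleukin 4 and interleukin 13 and take part in tissue repair. The 9 genes described here (Wfdc17, Spp1, Trem2, Gpnmb, Fabp5, Lgals3, Cd63, Chil3 and Retnla) are commonly used to mark these states in mice. All 9 were found by symbol among the 22173 genes of the table. They were chosen by name with the difference between the groups already known, so their values are given as a description and no p-value is given for any of them.

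Messenger RNA was measured by RNA sequencing in 7 mouse spleens taken 30 days after hepatocytes had been injected into the organ. Before that, 4 of them had received 4 injections of the biomaterial sHA-X to remodel the organ (sHA-X group), and 3 had received phosphate-buffered saline (PBS group). All 7 spleens were thus injected with hepatocytes, and no spleen without that injection was analysed here. Strain, sex, age and the origin of the hepatocytes are not given in the sources used here. The title of the series names the release of transforming growth factor beta as the intended action of the material.

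Levels were read as FPKM (fragments scaled to gene length and to library size), a unit that allows genes to be compared with each other. The whole reads behind them were recovered from the values, and amounted to between 29543963 and 37142126 reads per library. Each library was read as bulk spleen tissue, so more cells of a type and more RNA per cell cannot be told apart. The labels do not say that each library is a separate animal, and spleen is used here for library. Marker genes of 3 other tissues stood out in some libraries. Skeletal muscle markers summed to 201 FPKM in sHA-X replicate 2 and to at most 10.3 FPKM elsewhere. Pancreatic acinar markers summed to 890 FPKM in PBS replicate 2 and to at most 35.1 FPKM elsewhere. In sHA-X replicates 3 and 4, hepatocyte markers summed to 764 and 779 FPKM, and they summed to at most 24.0 FPKM elsewhere.

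The proteins have distinct places in the cell. Wfdc17 encodes a secreted protein with a whey acidic protein domain, Spp1 encodes osteopontin, a secreted ligand of integrins and CD44, and Chil3 and Retnla encode the secreted proteins Ym1 and FIZZ1. Trem2 is a surface receptor for lipids and apolipoproteins that signals through the adaptor Tyrobp. Gpnmb is a transmembrane glycoprotein of phagosomes and lysosomes, Cd63 is a tetraspanin of late endosomes, Fabp5 carries fatty acids in the cytosol, and Lgals3 is galectin 3, a lectin that binds galactosides and marks damaged lysosomes. In mice, Chil3 and Retnla are textbook targets of interleukin 4 and STAT6, and Gpnmb is a target of the MITF and TFE family of lysosomal regulators.

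Start-proximal sequence is shown for the 4 genes with the largest differences between the groups, because they are the ones that stand apart below, and for Retnla and Lgals3, because they held a STAT6-type motif. RefSeq promoter windows (GRCm38.p6) were found for 8 of the 9 genes, Fabp5 being the exception, and 250 bases upstream of each annotated start were searched on both strands. Positions count back from the annotated start, and capitals mark a motif. The 120 bases before the start of each of the 4 genes with the largest differences are, on the plus strand:
Wfdc17, chr11:83703936-83704055: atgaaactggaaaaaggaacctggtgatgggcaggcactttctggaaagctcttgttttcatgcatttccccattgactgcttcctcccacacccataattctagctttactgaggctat
Spp1, chr5:104434991-104435110: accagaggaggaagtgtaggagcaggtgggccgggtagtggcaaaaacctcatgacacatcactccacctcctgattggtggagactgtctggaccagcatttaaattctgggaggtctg
Trem2, chr17:48346281-48346400: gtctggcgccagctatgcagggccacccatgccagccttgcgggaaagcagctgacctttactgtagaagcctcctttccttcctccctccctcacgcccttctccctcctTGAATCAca
Gpnmb, chr6:49036398-49036517: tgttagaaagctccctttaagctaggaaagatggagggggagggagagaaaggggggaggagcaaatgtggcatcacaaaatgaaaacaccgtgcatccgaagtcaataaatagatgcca

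The stretches with a STAT6-type motif, also on the plus strand, are those of Retnla (motif at -145) and Lgals3 (motifs at -238 and -225):
Retnla, chr16:48842429-48842508: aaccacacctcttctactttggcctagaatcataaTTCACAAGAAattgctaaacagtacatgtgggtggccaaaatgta
Lgals3, chr14:47373610-47373669: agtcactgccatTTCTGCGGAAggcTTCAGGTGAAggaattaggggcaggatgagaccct

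Trem2 held TGANTCA, a relaxed form of the AP-1 site, in the version TGAATCA, which is not the AP-1 consensus itself. The relaxed form was found in the upstream part of 6.75% of all 32851 promoter windows. The STAT6-type motif, TTC and GAA with 4 bases between them, was found once in Retnla and in 2 places in Lgals3, and in 5.85% of all windows. None of the 8 windows held CACGTG, an E-box core bound by MITF and TFE factors (6.02% of all windows). None held AGGTCA repeated in the same direction with 1 base between, the element of PPAR receptors (0.0335%). Other forms of the E-box were not searched. The motifs found do not overlap each other. A match here is a string of letters in a window and not a shown binding site.

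Wfdc17, Spp1, Trem2 and Gpnmb had the largest differences. Each was higher in all 4 sHA-X spleens than in all 3 PBS spleens, by 6.57-fold to 23.3-fold between the group means. Fabp5, Lgals3 and Cd63 were also higher in all 4 sHA-X spleens, by 1.68-fold to 1.70-fold. Retnla was low in both groups with a 2.25-fold ratio of means, and Chil3 overlapped between the groups. Over all tested genes, the groups did not overlap for 28.8%. On the log2(FPKM + 1) scale, the median difference of the 9 genes was 0.75, against 0.03 over the 11920 genes tested.

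Wfdc17 (NCBI gene 100034251, chromosome 11, 83704056 to 83706269) was at 136, 148, 121 and 201 FPKM in the sHA-X spleens, in the order of replicates 1 to 4 used throughout, against 20.4, 21.1 and 22.6 FPKM in PBS replicates 1 to 3. The PBS spleens lay close together, and the lowest sHA-X spleen was 5.35 times the highest PBS spleen. The means were 151 ± 34.7 FPKM in sHA-X and 21.4 ± 1.13 FPKM in PBS (SD, n = 4 and 3), a log2 difference of 2.74 (SE 0.16). Wfdc17 was the fifth of the 9 genes by mean FPKM in PBS and the first in sHA-X. It made up 22.8% to 30.1% of the summed FPKM of the 9 genes in sHA-X spleens and 6.83% to 8.29% in PBS spleens. Among all tested genes, 14 had a larger log2 rise.

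Spp1 (NCBI gene 20750, chromosome 5, 104435111 to 104441053) was at 25.7, 4.37, 15.6 and 12.2 FPKM in sHA-X, against 0.523, 0.721 and 0.614 FPKM in PBS. It was the most uneven of the 9 genes among the sHA-X spleens, with a coefficient of variation of 61.1%. sHA-X replicate 2 was the lowest of them and still 6.06 times the highest PBS spleen. The means were 14.5 ± 8.83 FPKM in sHA-X and 0.619 ± 0.0992 FPKM in PBS, a log2 difference of 3.04 (SE 0.54) that understates the ratio of means because PBS lies below the pseudocount of 1. The PBS values rest on 27 to 37 reads per library, against 208 to 1316 reads in sHA-X.

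Trem2 (NCBI gene 83433, chromosome 17, 48346401 to 48352276) was at 4.15, 2.15, 3.86 and 2.99 FPKM in sHA-X, against 0.434, 0.546 and 0.522 FPKM in PBS. The groups did not overlap, and again sHA-X replicate 2 was the lowest of its group. Only 16 to 20 reads per library lay behind the PBS values, and 73 to 152 behind those of sHA-X. The log2 difference was 1.49 (SE 0.16), and 2.46 with a pseudocount of 0.1, since PBS lies below the pseudocount of 1.

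Gpnmb (NCBI gene 93695, chromosome 6, 49036518 to 49058182) was at 5.55, 3.53, 7.03 and 4.47 FPKM in sHA-X, against 0.488, 0.548 and 0.876 FPKM in PBS. The lowest sHA-X spleen was 4.03 times the highest PBS spleen. sHA-X replicate 2 was the lowest here as well, so that Spp1, Trem2 and Gpnmb had their lowest sHA-X value in the same library. The log2 difference was 1.88 (SE 0.19), and 2.82 with a pseudocount of 0.1. Wfdc17 did not share this order, with replicate 4 highest and replicate 3 lowest.

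Lgals3 (NCBI gene 16854, chromosome 14, 47373860 to 47386167) was at 101, 99.2, 106 and 102 FPKM in sHA-X, against 57.1, 59.1 and 65.8 FPKM in PBS. It was the most even of the 9 genes among the sHA-X spleens, with a coefficient of variation of 2.94%. Cd63 (NCBI gene 12512, chromosome 10, 128896231 to 128912822) was at 96.1, 90.9, 88.9 and 111 FPKM in sHA-X, against 53.5, 54.4 and 64.7 FPKM in PBS. Fabp5 (NCBI gene 16592, chromosome 3, 10012585 to 10016610) was at 61.2, 65.1, 65.7 and 87.2 FPKM in sHA-X, against 37.3, 37.7 and 48.3 FPKM in PBS. For all 3 genes the highest PBS spleen was replicate 3 and no PBS spleen reached the lowest sHA-X spleen. Their log2 differences were 0.75 (SE 0.06) for Lgals3, 0.74 (SE 0.10) for Cd63 and 0.75 (SE 0.14) for Fabp5. These 3 genes were abundant in every library, between the 91.5th and the 97.7th percentile of all genes in the table. The annotation holds near-identical copies that could share reads with Cd63 (Cd63-ps, 98.4% identical over 849 aligned bases) and with Fabp5 (Fabp5l2, 94.1% over 405 bases), so their levels are uncertain to that extent.

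Retnla (NCBI gene 57262, chromosome 16, 48842609 to 48844461) was at 1.97, 2.74, 3.54 and 2.08 FPKM in sHA-X, against 1.03, 0.810 and 1.6 FPKM in PBS. The groups stood apart narrowly, with the lowest sHA-X spleen 1.23 times the highest PBS spleen. Between 14 and 64 reads per library lay behind these values, and at 14 reads the counting error alone is 26.7%. Retnla lies next to Retnlg, a resistin-like gene of neutrophils, whose transcript was 83.2% identical over 601 aligned bases. Retnlg was at 69.7 ± 8.09 FPKM in sHA-X and 70.2 ± 6.29 FPKM in PBS (adjusted p = 0.95 by limma). A small share of its reads would be large beside Retnla. Whether any were counted there was not tested, so the level of Retnla is uncertain to that extent. Adipocytes also express Retnla. The 8 adipocyte markers summed to 20.0, 98.8, 24.7 and 38.8 FPKM in sHA-X, against 23.7, 7.74 and 23.1 FPKM in PBS. Fabp4, also in the lipid-associated macrophage list below, made up 64.6% of that sum over the 7 libraries. Of the 8 markers 4 were tested, and none passed limma. The part of adipocytes in the Retnla level was not tested.

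**Figure D1:**
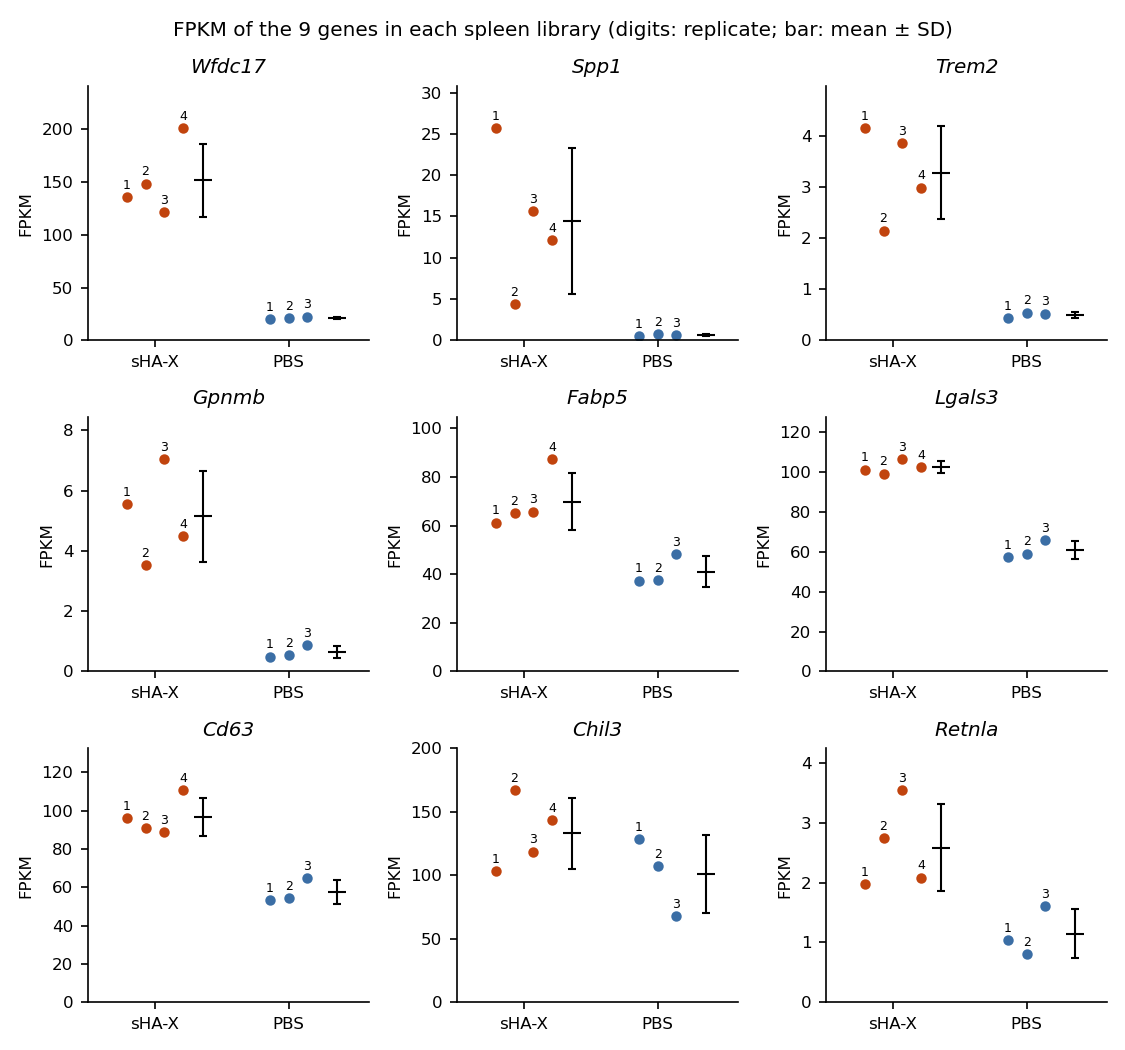
FPKM (vertical axes, linear, from 0) of the 9 genes in each of the 4 sHA-X and 3 PBS spleen libraries; digits give the replicate and bars the mean ± SD. The groups do not overlap for 8 genes, chosen with this contrast known, nor for 28.8% of all tested genes. For Chil3 the PBS range of 67.7 to 128 FPKM overlaps the sHA-X range of 103 to 167 FPKM.

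Chil3 (NCBI gene 12655, chromosome 3, 106147554 to 106167564) was at 103, 167, 119 and 144 FPKM in sHA-X, against 128, 107 and 67.7 FPKM in PBS. PBS replicate 1 was above sHA-X replicates 1 and 3, and the means of 133 ± 28.1 FPKM in sHA-X and 101 ± 30.8 FPKM in PBS differed by about the spread within each group. The log2 difference was 0.42 (SE 0.26), and between 0.16 and 0.61 with 1 library left out. Chil3 was the most abundant of the 9 genes in PBS and the second in sHA-X. Its transcript was 94.2% identical to that of Chil4 (Ym2), the next gene on the chromosome, which stayed at or under 0.0817 FPKM in each of the 7 libraries.

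The pattern of Chil3 across libraries was nearest to genes of neutrophil granules. By the root mean square difference of centred log2(FPKM + 1) profiles over the 7 libraries, Ngp and Camp, which encode granule proteins of developing neutrophils, were the nearest of all tested genes outside the 9, at 0.088 and 0.098. Ngp was at 259, 466, 287 and 396 FPKM in sHA-X, against 331, 307 and 169 FPKM in PBS. Camp was at 169, 305, 193 and 251 FPKM in sHA-X, against 232, 215 and 124 FPKM in PBS. All 3 genes ranked the sHA-X libraries in the order 2, 4, 3, 1 and the PBS libraries in the order 1, 2, 3. The summed FPKM of 12 neutrophil markers followed the same order, at 3454, 5528, 3896 and 4696 in sHA-X and 3385, 3347 and 1958 in PBS. Of these 12 markers only Ctsg passed limma, in the higher direction (adjusted p = 0.022), a call lost when PBS replicate 1 or any sHA-X library except the first was left out (at most 0.057 by limma). Monocytes also express Chil3, and the monocyte marker sum was at 403, 363, 410 and 384 FPKM in sHA-X and 376, 353 and 390 FPKM in PBS. Its members went both ways. Of 6 tested by limma, F13a1 (adjusted p = 0.0057) and Ly6c2 (0.034) rose, Plac8 fell (0.0070) and 3 did not pass. Ly6c2 was no longer called in 6 of the 7 fits with 1 library left out. The part of either cell type in the Chil3 level was not tested.

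**Figure D2:**
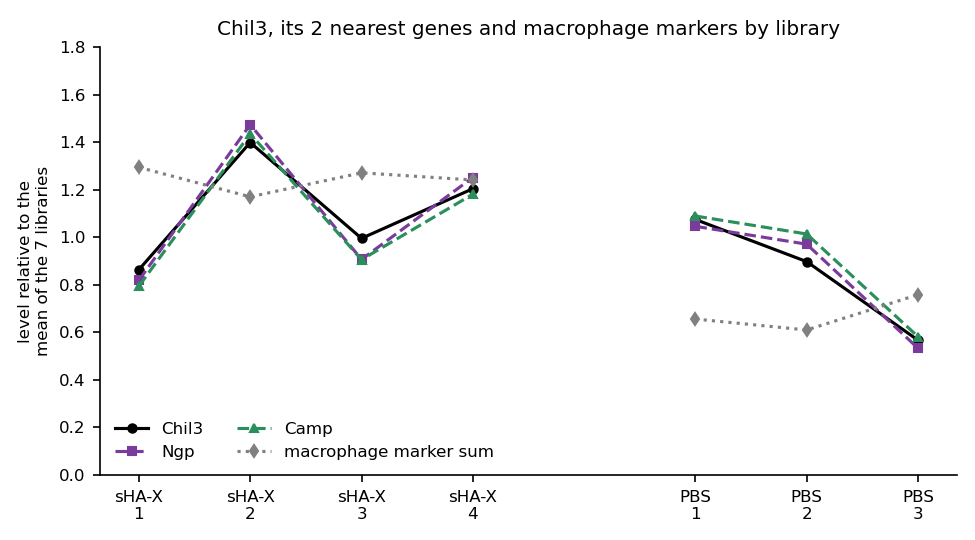
Level of Chil3, Ngp, Camp and the sum of 10 macrophage markers in each library, relative to each one's mean over the 7 libraries (vertical axis, linear, from 0). Chil3, Ngp and Camp peak in sHA-X replicate 2 and are lowest in PBS replicate 3, while the macrophage markers are above their mean in all 4 sHA-X libraries.

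Macrophage markers themselves were higher in sHA-X, and the 9 genes differed in how they stood beside them. Of 10 macrophage markers, 9 rose by limma and only Csf1r, the receptor for macrophage colony-stimulating factor, did not pass. Among these 9, Adgre1 was no longer called in 5 of the 7 fits with 1 library left out, and the other 8 were called in each. Their summed FPKM was 1753, 1585, 1722 and 1681 in sHA-X, against 889, 826 and 1028 in PBS, a 1.84-fold ratio of means. All 8 red pulp macrophage markers rose (Trf was no longer called in 3 of the 7 fits), and their sum was 2030 to 2240 FPKM in sHA-X and 988 to 1315 FPKM in PBS. Their part in the levels of the 9 genes was not tested.

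Per 100 FPKM of the 10 macrophage markers, Spp1 was at 0.275 to 1.46 FPKM in sHA-X and 0.0588 to 0.0872 FPKM in PBS, a 12.3-fold ratio of means. Gpnmb was 4.41-fold, Wfdc17 3.84-fold and Trem2 3.51-fold higher on this scale, and for these 4 genes the groups still did not overlap. Wfdc17 was at 7.74, 9.36, 7.03 and 11.9 FPKM per 100 in sHA-X, against 2.30, 2.55 and 2.20 in PBS.

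Fabp5, Lgals3, Cd63 and Chil3 had lower means in sHA-X per 100 FPKM of these markers, with ratios of 0.926, 0.911, 0.911 and 0.703. The groups overlapped for Fabp5, Cd63, Chil3 and Retnla. Lgals3 was at 5.77 to 6.26 in sHA-X and 6.41 to 7.15 in PBS. The direction depended on the marker chosen. The 3 complement C1q chains are the most abundant markers in the sum. Per FPKM of Adgre1, the F4/80 antigen, the ratios for Fabp5, Lgals3 and Cd63 were 1.17, 1.15 and 1.15, with overlap in each. Per FPKM of Csf1r they were 1.41, 1.38 and 1.38, with overlap for Fabp5 but not for Lgals3 or Cd63. Retnla had ratios of 1.24 per marker sum, 1.58 per Adgre1 and 1.91 per Csf1r, with overlap in each. The ratio for Chil3 was 0.897 per FPKM of Adgre1 and 1.07 per FPKM of Csf1r, with overlap in both. Wfdc17, Spp1, Trem2 and Gpnmb remained apart in all 3 scalings, with ratios of 4.88, 14.7, 4.31 and 5.46 per FPKM of Adgre1 and of 5.81, 18.1, 5.25 and 6.69 per FPKM of Csf1r.

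**Figure D3:**
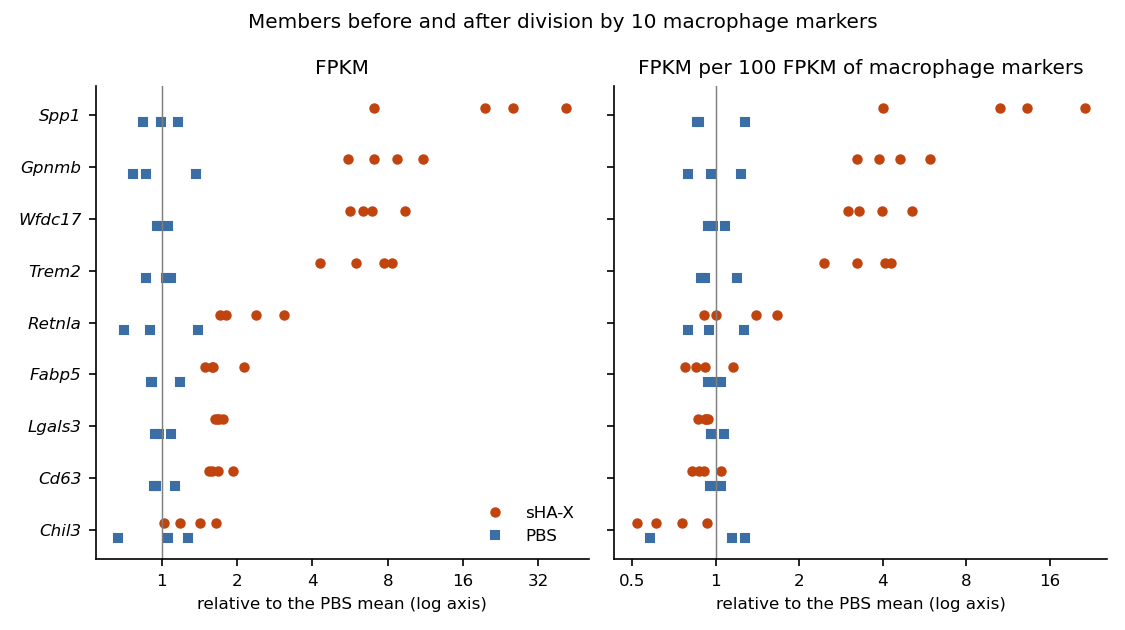
Each library's level of the 9 genes relative to the PBS mean (log axes), as FPKM (left) and as FPKM per 100 FPKM of 10 macrophage markers (right); circles are sHA-X and squares PBS. Spp1, Gpnmb, Wfdc17 and Trem2 stay to the right of every PBS library in both panels, with ratios of means of 12.3, 4.41, 3.84 and 3.51 after the division.

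Calls were made by limma over all 11920 genes, at an adjusted p below 0.05, and 14.3% of genes were called in either direction, 9.3% higher and 5.03% lower. Of the 9 genes, 8 passed this threshold in the higher direction (5 without PBS replicate 1), and 8 did not overlap between the groups, as for 28.8% of tested genes. Since the genes were chosen with this contrast known, nothing is read from these counts. Spp1, Trem2 and Gpnmb averaged less than 1 FPKM in PBS and passed the filter on low values through their sHA-X levels. The same holds for Mgl2, Arg1, Acod1, Trem1, Mitf, Ccl3, Apod and Ccl7 among the other genes named, which limits any call made for them.

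Other genes of lipid-associated macrophages, from a list written with earlier results of these data known, were mostly lysosomal and lipid-handling genes. Of 23 tested, 12 rose (52.2%), 1 fell and 10 did not pass, with a median log2 change of 0.37. Without both second libraries, which carried the muscle and pancreatic genes, 8 rose and none fell. The summed FPKM of the 24 genes listed had a 1.44-fold ratio of means, against 1.84-fold for the 10 macrophage markers, and Cd68 is in both lists. The lysosomal protease Ctsb was at 1043 ± 17.6 FPKM in sHA-X and 632 ± 34.4 FPKM in PBS (adjusted p = 0.00042 by limma). Ctsd, another lysosomal protease, was at 624 ± 17.4 FPKM in sHA-X and 359 ± 12.5 FPKM in PBS (adjusted p = 0.00026 by limma), and the lysosomal membrane protein Cd68 at 102 ± 5.16 FPKM in sHA-X and 55.1 ± 2.08 FPKM in PBS (adjusted p = 0.00025). The apolipoprotein gene Apoe, the galectin Lgals1, the lipid droplet coat protein Plin2, the protease inhibitor Cstb and the protease Ctsl rose as well. These 8 were called in each fit with 1 library left out.

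Other markers of the same state fell, did not pass or could not be tested. The scavenger receptor Cd36 fell to 79.8 ± 2.58 FPKM in sHA-X, against 108 ± 15.5 FPKM in PBS (adjusted p = 0.017 by limma, and no longer called without both second libraries). The tetraspanin Cd9 was at 82.9 ± 5.04 FPKM in sHA-X and 84.4 ± 10.7 FPKM in PBS (adjusted p = 0.91 by limma), the integrin Itgax at 21.1 ± 2.45 FPKM in sHA-X and 20.8 ± 1.88 FPKM in PBS (adjusted p = 0.95) and the actin-capping protein Capg at 60.1 ± 0.756 FPKM in sHA-X and 62.0 ± 8.64 FPKM in PBS (adjusted p = 0.83). Lipoprotein lipase, Lpl, was at 26.0 ± 7.62 FPKM in sHA-X and 15.5 ± 2.30 FPKM in PBS (adjusted p = 0.11 by limma). The groups did not overlap for Lpl. Atp6v0d2, a proton pump subunit of macrophages and osteoclasts that lay under the filter, was at 0.608, 0.886, 0.676 and 1.04 FPKM in sHA-X, against 0, 0.0461 and 0.184 FPKM in PBS, again without overlap. Cd36, Lpl and Atp6v0d2 were named after their values were seen.

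Of 21 tested genes of alternative activation, 6 rose (28.6%) and none fell, while 15 missed the threshold, at a median log2 change of 0.19. Only 3 rose without PBS replicate 1 or without PBS replicate 2. Tgm2, a transglutaminase, was at 73.5 ± 5.55 FPKM in sHA-X and 42.9 ± 2.30 FPKM in PBS (adjusted p = 0.00074 by limma). The mannose receptor Mrc1 was at 62.3 ± 4.87 FPKM in sHA-X and 38.8 ± 4.89 FPKM in PBS (adjusted p = 0.0036 by limma), and the lectin Mgl2 at 3.27 ± 0.953 FPKM in sHA-X and 0.823 ± 0.241 FPKM in PBS (adjusted p = 0.0041). These 3 were called whichever library was left out, but Mgl2 averaged less than 1 FPKM in PBS and passed the filter through its sHA-X levels. The scavenger receptor Cd163 was no longer called when any library but PBS replicate 3 or sHA-X replicate 4 was left out (adjusted p at most 0.10 by limma). For the nuclear receptor Pparg the same held for any library but PBS replicate 3 or sHA-X replicate 3 (at most 0.13), and for the lectin Clec7a for any but sHA-X replicate 1 or 4 (at most 0.16).

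Arg1, the arginase that with Chil3 and Retnla is a standard mark of alternative activation in mice, spread widely and was also named after its values were seen. It was at 16.7, 0.593, 7.84 and 8.68 FPKM in sHA-X, against 0.105, 0.254 and 0.0607 FPKM in PBS. The groups did not overlap, but the difference did not pass limma (log2 change 2.62, SE 0.84, adjusted p = 0.10). Like Spp1, Trem2 and Gpnmb, it was lowest in sHA-X replicate 2. Hepatocytes also express Arg1, and hepatocyte markers summed to 4.67, 24.0, 764 and 779 FPKM in sHA-X, against 2.34, 7.68 and 3.69 FPKM in PBS. Their part in the Arg1 level was not tested. The transcription factors Irf4 (adjusted p = 0.998 by limma) and Klf4 (0.97) and the transferrin receptor Tfrc (0.93) did not pass.

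**Figure D4:**
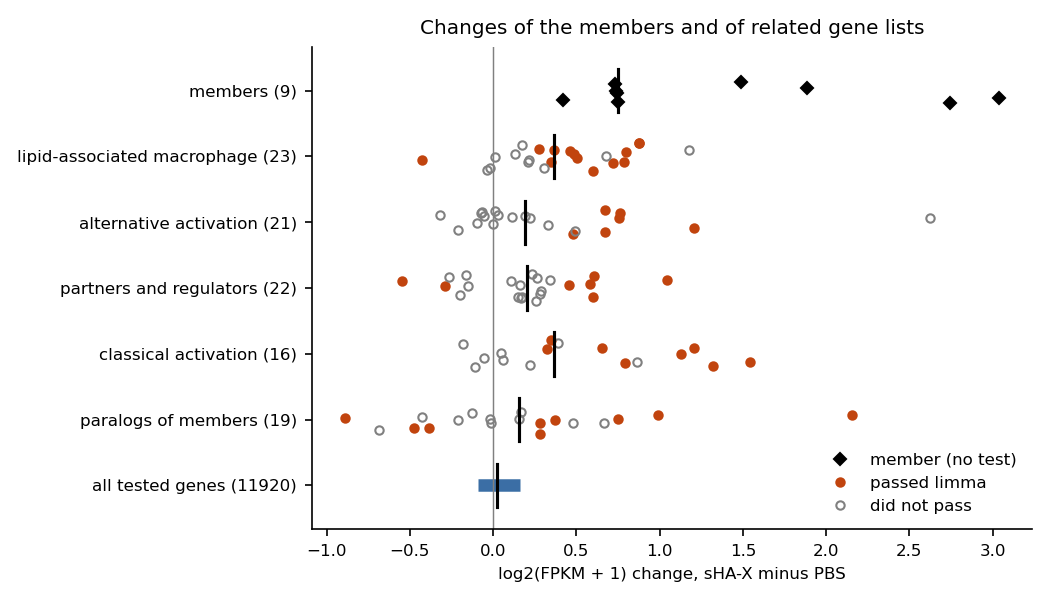
Change in log2(FPKM + 1), sHA-X minus PBS (horizontal axis), of the 9 members and of each tested gene of 5 related lists, with the number of genes in brackets; filled circles passed limma, open circles did not, members are given with no test, and black bars are medians. The bottom row gives the median and interquartile range of all 11920 tested genes, whose median was 0.03.

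Ligands, receptors and regulators connected with the 9 genes gave a mixed picture, with 5 of 22 tested genes rising (22.7%), 2 falling (9.09%) and 15 not passing. The number that rose was 2 without PBS replicate 1, 3 without PBS replicate 2 and 9 without PBS replicate 3, and 2 rose and 1 fell without both second libraries. Among receptors of osteopontin, the integrin chain Itga9 rose to 18.3 ± 1.38 FPKM in sHA-X, against 11.7 ± 1.77 FPKM in PBS (adjusted p = 0.0065 by limma). Itgb3, a chain shared with the platelet integrin, fell to 19.2 ± 0.961 FPKM in sHA-X, against 28.6 ± 2.91 FPKM in PBS (adjusted p = 0.0034). Itga4 fell as well, a call lost without PBS replicate 1 (adjusted p = 0.060 by limma). The receptor Cd44 did not pass, at 56.0 ± 2.24 FPKM in sHA-X and 50.5 ± 3.97 FPKM in PBS (adjusted p = 0.17 by limma). Tyrobp, the adaptor of Trem2, was at 416 ± 9.99 FPKM in sHA-X and 344 ± 44.8 FPKM in PBS (adjusted p = 0.060 by limma).

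Lgals3bp, a secreted binding partner of galectin 3, rose to 104 ± 7.07 FPKM in sHA-X, against 68.5 ± 3.95 FPKM in PBS (adjusted p = 0.0017 by limma). The liver X receptor gene Nr1h3 rose, a call lost without PBS replicate 1 (adjusted p = 0.070). So did the alarmin Il33, a call lost without PBS replicate 1 or 2 (up to 0.068), and Tfec, a macrophage member of the MITF and TFE family, whose call was lost without any library except PBS replicate 3 (up to 0.16). The other family members did not pass, with Mitf at 1.38 ± 0.210 FPKM in sHA-X and 0.992 ± 0.259 FPKM in PBS (adjusted p = 0.17 by limma). The interleukin 33 receptor Il1rl1 (adjusted p = 0.62 by limma), Csf1 (0.31) and the adaptor Hcst (0.30) did not pass. Of the cytokines that drive alternative activation, Il4 lay under the filter at 0.490 ± 0.207 FPKM in sHA-X and 0.642 ± 0.324 FPKM in PBS, and Il13 was at 0 in all 7 libraries.

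Some genes of classical activation rose beside these. Of 16 tested, 8 rose (50%) and none fell, the other 8 did not pass, with a median log2 change of 0.37. Il1b was at 32.3 ± 8.36 FPKM in sHA-X and 12.0 ± 0.709 FPKM in PBS (adjusted p = 0.0046 by limma), and the suppressor of cytokine signalling Socs3 at 21.6 ± 3.15 FPKM in sHA-X and 9.36 ± 1.55 FPKM in PBS (adjusted p = 0.0020). The Fc receptor Fcgr1, also 1 of the 10 macrophage markers, Il12b and the itaconate enzyme Acod1 rose whichever library was left out. Acod1 averaged 0.0868 FPKM in PBS and passed the filter through its sHA-X levels. Gbp2 was no longer called when any library but PBS replicate 3 or sHA-X replicate 1 or 2 was left out, and Irf1 when any but PBS replicate 3 or sHA-X replicate 1 was (adjusted p at most 0.13 and 0.14 by limma). Tnf was at 4.76 ± 0.256 FPKM in sHA-X and 5.0 ± 0.507 FPKM in PBS (adjusted p = 0.69 by limma), and Cd80 (0.76) and Ccl5 (0.83) did not pass either. Nos2, the usual counterpart of Arg1, lay under the filter at 1.05 ± 0.259 FPKM in sHA-X and 0.630 ± 0.121 FPKM in PBS.

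Relatives of the 9 genes did not move as one. Of 19 tested family members, 6 rose (31.6%), 3 fell (15.8%) and 10 did not pass. Leaving out sHA-X replicate 3 or 4 gave 2 that rose, and leaving out PBS replicate 1, or both second libraries, gave 3. Slpi, a protease inhibitor with whey acidic protein domains like Wfdc17, rose to 299.6 ± 73.3 FPKM in sHA-X, against 66.0 ± 13.9 FPKM in PBS (log2 change 2.15, SE 0.22, adjusted p = 0.0024 by limma). In the Trem family, Trem1, an activating receptor of neutrophils and monocytes, rose to 2.82 ± 0.545 FPKM in sHA-X, against 0.910 ± 0.116 FPKM in PBS (adjusted p = 0.0017 by limma). Trem1 thus averaged less than 1 FPKM in PBS and passed the filter through its sHA-X levels. Treml2, a B cell and myeloid member, fell to 24.2 ± 1.19 FPKM in sHA-X, against 31.9 ± 1.70 FPKM in PBS (adjusted p = 0.0060 by limma). Treml1, a platelet receptor next to Trem2 on the chromosome, fell too, to 9.46 ± 2.83 FPKM in sHA-X, against 17.9 ± 2.05 FPKM in PBS (adjusted p = 0.044 by limma). The call of Treml1 was lost without any PBS replicate or sHA-X replicate 1 or 2 (up to 0.14).

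Trem3 and Treml4 rose. Trem3 was no longer called when any library but PBS replicate 1 or 3 or sHA-X replicate 1 was left out (adjusted p at most 0.072 by limma), and Treml4 when any but PBS replicate 3 or sHA-X replicate 2 was (at most 0.10). Among tetraspanins related to Cd63, the B cell member Cd37 fell to 107 ± 6.79 FPKM in sHA-X, against 148 ± 9.09 FPKM in PBS (adjusted p = 0.0042 by limma). Cd82 rose, but was no longer called when PBS replicate 1 or any sHA-X replicate except 2 was left out (adjusted p at most 0.092 by limma). Of 7 B cell markers 6 fell, and their sum was 1088 to 1259 FPKM in sHA-X and 1611 to 1922 FPKM in PBS. The galectins Lgals8 (adjusted p = 0.91 by limma) and Lgals9 (0.38) did not pass.

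Wfdc17 lies in a cluster of chemokine and whey acidic protein genes. Within 150 kb on either side, Wfdc18, whose transcript was 79.5% identical over 528 aligned bases, lay under the filter at 0.349 ± 0.236 FPKM in sHA-X and 0.0567 ± 0.0575 FPKM in PBS, a 6.15-fold ratio of means without overlap that was not tested. Wfdc21 was at 42.1 ± 7.65 FPKM in sHA-X and 26.3 ± 5.72 FPKM in PBS (adjusted p = 0.066 by limma). The chemokine genes Ccl9 (log2 change 0.84, adjusted p = 0.040 by limma) and Ccl3 (1.03, adjusted p = 0.015) rose, and Ccl6 (0.62, adjusted p = 0.12) and Ccl4 (0.96, adjusted p = 0.059) did not pass. Ccl9 was no longer called without PBS replicate 1 or 2 or without either of sHA-X replicates 3 and 4 (adjusted p at most 0.12 by limma), nor Ccl3 without PBS replicate 1 or 2 (at most 0.071). Ccl3 averaged 0.854 FPKM in PBS and passed the filter through its sHA-X levels. Ccl3 and Ccl4 overlap in the RefSeq annotation and their reads may not be told apart. Heatr6 fell to 5.13 ± 0.199 FPKM in sHA-X, against 7.03 ± 0.728 FPKM in PBS (log2 change -0.39, adjusted p = 0.015 by limma). These neighbours were chosen by position after the data had been seen.

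The genes nearest in profile to the others, by the same root mean square difference over 7 libraries, differed from member to member. Spp1 was nearest to the matrix metalloproteinase Mmp3 (0.251) and the chemokine Ccl7 (0.309), and Trem2 to the decoy receptor Il1r2 (0.124) and the protease Ctsk (0.132). Mmp3 was at 43.7, 13.7, 26.7 and 24.6 FPKM in sHA-X, against 1.73, 1.65 and 2.09 FPKM in PBS, with the libraries of sHA-X in the same order as for Spp1 and Trem2. Ctsk was at 19.7, 10.7, 16.0 and 14.7 FPKM in sHA-X, against 4.85, 3.85 and 5.25 FPKM in PBS, again in that order. Ctsk and Spp1 are also genes of osteoclasts. Of 7 osteoclast and giant cell markers 3 were tested, of which Ctsk and Mmp9 rose, and the calcitonin receptor Calcr was at 0 in all 7 libraries. The sum of the 7 was 195 to 210.1 FPKM in sHA-X and 157 to 181 FPKM in PBS. Acp5, also in the lipid-associated macrophage list, made up 86.9% of that sum over the 7 libraries and did not pass limma (adjusted p = 0.14). The part of osteoclasts and giant cells in the Spp1 level was not tested.

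Wfdc17 was nearest to Ms4a6d (0.298) and the apolipoprotein Apod (0.361), Gpnmb to Serpinf1 (0.145) and the lectin Clec4g (0.170), and Retnla to Cox4i2 (0.136) and Cystm1 (0.138). Fabp5 was nearest to the lectin Clec4a3 (0.0842) and Basp1 (0.0850), Cd63 to Frzb (0.0584) and Serpinb6a (0.0622), and Lgals3 to the syndecan Sdc3 (0.0442) and the lysosomal protease Ctsb (0.0492). Ctsb was at 1067, 1037, 1044 and 1025 FPKM in sHA-X, against 629, 600 and 668 FPKM in PBS, and like Lgals3 varied little within the groups. Of 8 fibroblast markers 7 rose, and the sum of the 8 was 629, 413, 444 and 409 FPKM in sHA-X, against 209, 148 and 190 FPKM in PBS. The collagens Col1a1, Col1a2 and Col3a1 were no longer called without PBS replicate 2, which leaves 4 of those 7. Col1a1 was also lost without PBS replicate 1, and Col3a1 in 5 of the 7 fits with 1 library left out. The part of fibroblasts in the Spp1 level was not tested.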

How the data were processed

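The deposited table gave 1 value per gene and library for 4 sHA-X and 3 PBS spleens. Per the submitters' processing notes, build mm10 and the tools HISAT2, fastp, DESeq2, HTSeq and R 3.2.0 were involved; roles are not given. The header names no unit. The deposited values were read as FPKM computed by the authors, the unit under which they were described for this work. Within each of 16889 genes above 0 in at least 2 libraries they were whole multiples of 1 step (within 0.01 of a read), which gave the reads per library. Whole multiples do not by themselves show scaling to gene length, so comparisons of level between genes rest on the FPKM reading. The test was limma 3.58.1 in R 4.3.3 on log2(FPKM + 1), with a trended robust variance and Benjamini-Hochberg adjustment, over the 11920 genes with a mean of at least 1 FPKM, and 10253 were left out. The fit and the read recovery were tested on simulated data. P-values cover only the spread of these libraries, which may be technical.

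The members and lists were chosen with earlier results of these data known. Named are the members, up to 8 called genes of each list by smallest p and the 3 with the largest p, and the 2 nearest profiles per member. Chosen after their values were seen were Cd36, Lpl, Atp6v0d2, Acp5, Fabp4, Arg1, Cd44, Tyrobp, Mitf, Il4, Il13, Nos2, Csf1r, Adgre1, Trf, Ly6c2, F13a1, Plac8, Ctsg, Mmp9, Calcr, Col1a1, Col1a2, Col3a1 and the neighbours of Wfdc17. One gene that the rule names is not reported here, and not each marker list is described. Alternatives were another pseudocount, filters, scalings, variance settings, a replicate block, and libraries left out. The sources used here do not give the strandedness of the kit, and no annotated gene overlapped a member. Coordinates and promoters are RefSeq GRCm38.p6, and transcript identities are local alignments of GENCODE M21 transcripts.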

Additional observations from a re-analysis of the deposited data

Results flagged for a closer look

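Within the sHA-X group of 4, 3 of 66 quantities had 1 library far from the others (a gap of more than 0.829 of the range), where chance gives about 1 in 20. Nr1h3 was at 44.6 FPKM in sHA-X replicate 3, against 37.9 FPKM in the next library. The skeletal muscle marker sum was 201 FPKM in sHA-X replicate 2, against 7.90 FPKM in the next. The fibroblast marker sum was 629 FPKM in sHA-X replicate 1, against 444 FPKM in the next. None of the 9 genes was among them, and groups of 3 were not tested.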

How the results depend on the processing

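The log2 differences of the 9 genes kept their sign under the alternatives run, except that Trem2 and Retnla dropped out under a filter of 3 FPKM and have no value there. With a pseudocount of 0.1 those of Spp1, Trem2, Gpnmb and Retnla were 4.09, 2.46, 2.82 and 1.12, as low values weigh more. Over all genes, 492 were called higher and 330 lower without both second libraries, and 938 lower with quantile normalization. The replicate block is no pairing here, since same-numbered libraries correlated at 0.15, -0.21 and -0.29. With it, 276 genes were called higher and 72 lower, the lipid-associated list had 7 higher and 0 lower, the partner list 2 and 1, and the paralogs 2 higher. Without both second libraries the lipid-associated list had 0 lower, the partner list 2 higher and 1 lower and the paralogs 3 higher. With no filter, or with quantile normalization, 3 alternative activation genes were higher. With 1 library left out, 488 to 1263 genes were higher and 228 to 637 lower, with 3 to 5 alternative activation genes, 2 to 9 partners and 2 to 6 paralogs higher, and 1 to 2 partners lower. The cause of these shifts was not tested. Depth limits Retnla, Trem2 and Spp1 in PBS most.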
